A study of Mus musculus with 6 samples.

Results

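The genes described here are 53 genes of DNA replication and S phase, taken by symbol from the 35976 genes counted in each library. They comprised 11 genes of origin licensing, 9 of helicase activation and fork progression, 6 of the sliding clamp and its loader, and 10 of the polymerases, single-strand binding and Okazaki fragment joining. The remaining 17 were 5 genes of nucleotide supply, 2 of chromatin assembly, 5 regulators of the passage from G1 to S phase, and 5 of the checkpoint and of replication repair. RNA-seq was performed on 6 cultures of dorsal root ganglion (DRG) neurons, which carry touch, heat and pain signals to the spinal cord, from wildtype C57BL/6 mice of both sexes aged 2 to 3 months. HC-HA/PTX3 is a complex of hyaluronan, heavy chain 1 and pentraxin 3 purified from human amniotic membrane. It was given at 15 µg/mL to 3 of the cultures, and the other 3 received vehicle. Exposure began 24 h after plating and lasted 24 h. All 6 cultures were kept in serum-containing medium with growth factors. The comparison asked how a day of HC-HA/PTX3 changes gene expression in these cultures.

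Libraries were made from total RNA depleted of ribosomal RNA, and the deposited values were raw counts per gene. Vehicle replicates 1, 2 and 3 held 42516054, 42617496 and 54117547 counts. HC-HA/PTX3 replicates 1, 2 and 3 held 37998071, 37434266 and 38420247 counts, so each treated library was smaller than each vehicle library. Levels are given in CPM, counts scaled to a common library size, after TMM scaling, edgeR's correction for library size and composition. The lowest count of any of the 53 genes in any library was 33, and all 53 passed edgeR's filter on low counts, as did 18277 genes in all. The study calls its samples biological replicates and states that animals were randomized to groups. Neither the labels nor its methods say which animals gave each culture, so the p-values measure the spread between these samples.

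To copy its genome, a cell first loads the MCM helicase onto replication origins, a step called licensing, and then fires the origins in S phase, when polymerases, the PCNA clamp and a supply of deoxynucleotides are needed at the fork. Many of these genes are switched on together by E2F transcription factors once cyclin-dependent kinases have inactivated the RB protein family. Sensory neurons are post-mitotic, whereas glia, fibroblasts, endothelial cells and macrophages of the ganglion can divide, and a dissociated culture can hold them too.

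The label of the cultures was checked against marker genes. The 14 neuron markers summed to 11170, 8983 and 10110 CPM in vehicle replicates 1, 2 and 3, with Nefl the most abundant, and none was at 0. Reads of genes that mark other cells were counted too. In the same vehicle cultures the 10 fibroblast markers, led by Fn1, summed to 4381, 4316 and 2816 CPM, and the 10 Schwann cell and myelin markers, led by Ngfr, to 3180, 2595 and 2444 CPM. The 9 satellite glia markers, led by Apoe, summed to 2214, 1326 and 553.1 CPM. The 10 endothelial and mural markers, led by Rgs5, summed to 560.3, 609.6 and 587.3 CPM, and the 10 macrophage markers, led by Cd68, to 61.25, 79.53 and 65.76 CPM. No marker of these lists was at 0 in all libraries. Sensory neurons also express some of them, such as Ngfr, L1cam, Ncam1 and Thy1, so the sums are not shares of cells, and a level measured in bulk cannot be assigned to one cell type. For the same reason, fewer cells of a dividing type and less RNA of these genes per cell cannot be told apart.

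After 24 h of HC-HA/PTX3, the replication genes were broadly lower. The 53 genes summed to 1209, 1271 and 957.2 CPM in vehicle replicates 1, 2 and 3 and to 711.5, 942.7 and 555.1 CPM in the treated replicates of the same numbers. Every treated sum was below every vehicle sum, and treated replicate 2 came close to vehicle replicate 3. Within the same-numbered pairs the treated sum was 58.9%, 74.2% and 58.0% of the vehicle sum. A gene was called changed at an adjusted p-value below 0.05 together with a log2 fold change beyond 0.5 in either direction in edgeR's quasi-likelihood test, adjusted after Benjamini-Hochberg over all tested genes and blocked on the replicate number. On this test 33 of the 53 genes fell, where 5.38% of all tested genes were called lower, and 0 rose, where 3.32% of all tested genes were called higher. The fitted change was below 0 for 51 of the 53, and the median log2 fold change was -0.73, beside -0.01 over all 18277 tested genes. At an unadjusted p-value under 0.05 no gene of the list was higher either.

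Of the 20 genes not called, 10 had an adjusted p-value under 0.05 with a change short of the fold threshold, and the other 10 had a larger adjusted p-value. The genes nearest the fold threshold were Wdhd1 at -0.53 and Pcna at -0.54, which passed it, and Mcm7 at -0.48 and Mcm10 at -0.47, which did not. In all 3 pairs 49 of the 53 genes were lower in the treated culture, as were 27.8% of all tested genes. In 25 genes every treated culture lay below every vehicle culture, as in 8.29% of all tested genes. The largest changes were those of E2f8 (-1.80), Tk1 (-1.75), Mcm5 (-1.55) and Rrm2 (-1.55), which ranked 14, 19, 41 and 43 from the lowest among the 18277 tested genes.

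**Figure D1:**
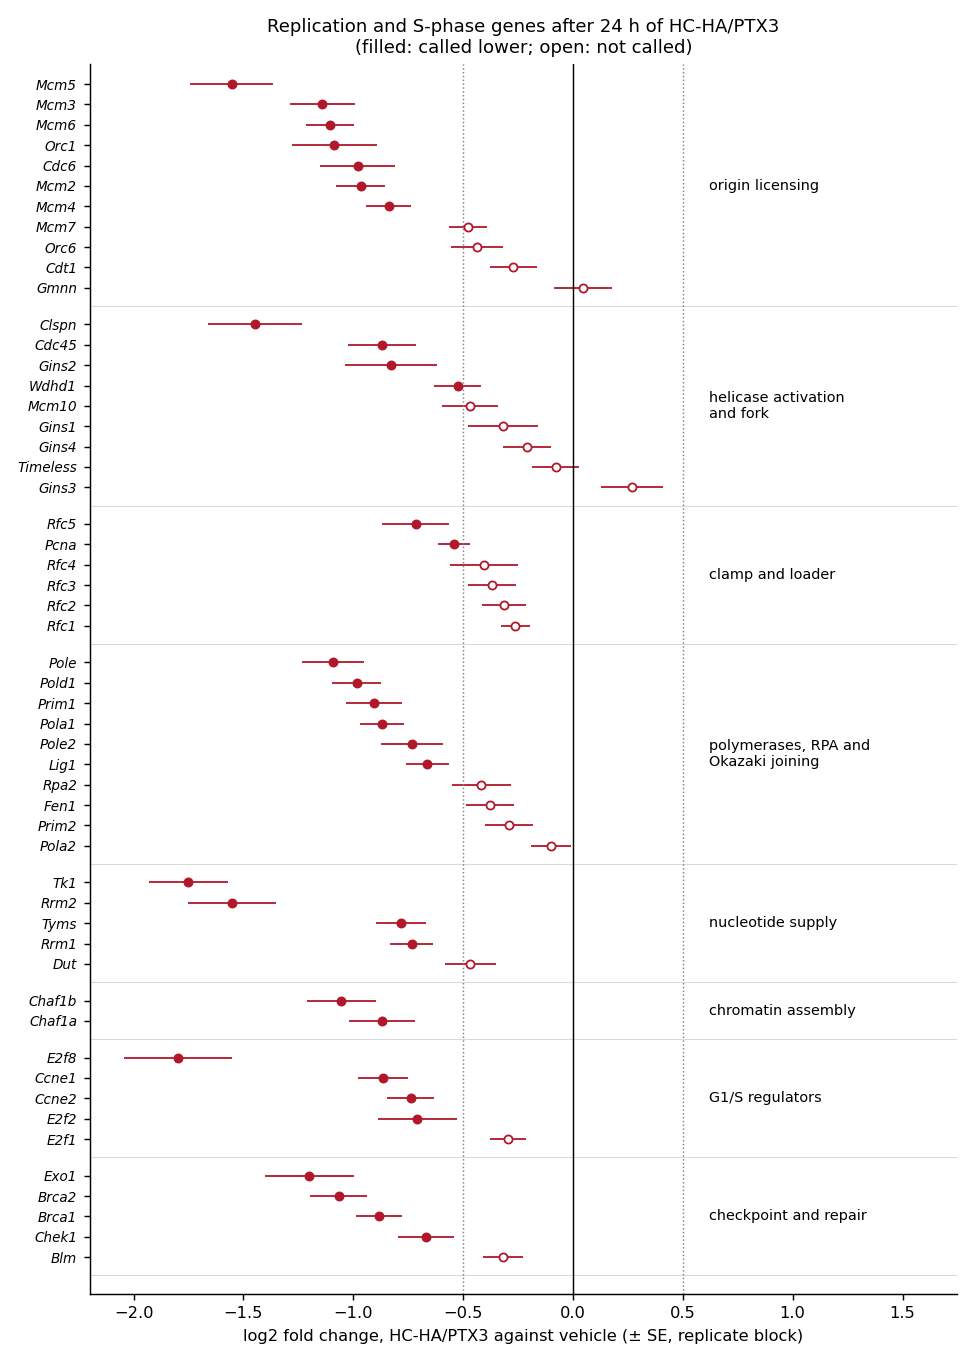
Log2 fold change of HC-HA/PTX3 against vehicle for each of the 53 genes, grouped by role, with bars of 1 standard error from edgeR's fit blocked on the replicate number (n = 3 pairs). Filled points mark the 33 genes called lower, open points the 20 not called, and dotted lines the fold threshold of 0.5; only Gmnn and Gins3 lie to the right of 0.

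Of the 11 licensing genes 7 fell, and their median log2 fold change was -0.97. Mcm5 encodes a subunit of the MCM2-7 helicase and is found on chromosome 8 (mm10, 75109569 to 75128439). It was measured at 33.2, 36.3 and 24.4 CPM in vehicle replicates 1, 2 and 3 and at 11.8, 18.7 and 4.90 CPM in HC-HA/PTX3 replicates 1, 2 and 3. All treated cultures were below all vehicle cultures, and replicate 3 was the lowest of each group. The fitted level was 34.1% of vehicle, or -1.55 on the log2 scale (SE 0.19, adjusted p = 0.000941 in edgeR's quasi-likelihood test, Benjamini-Hochberg adjusted). Mcm4, on chromosome 16 from 15623897 to 15637400, had the highest level of the licensing genes per kilobase of exon, 14.2 CPM per kb in the vehicle cultures. Its level was 54.7, 57.1 and 40.7 CPM with vehicle and 28.6, 40.3 and 19.3 CPM with HC-HA/PTX3. The groups did not overlap, although vehicle replicate 3 and treated replicate 2 were nearly equal. Mcm4 changed on the log2 scale by -0.84 (SE 0.10, adjusted p = 0.000938, same test).

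The other helicase subunits Mcm2, Mcm3 and Mcm6 had log2 fold changes of -0.97, -1.14 and -1.11 and were called, whereas Mcm7 was not. Orc1, the largest subunit of the origin recognition complex, changed by -1.09, and Cdc6, which loads the helicase together with Cdt1, by -0.98. The partner gene Cdt1 had a change of -0.27 (SE 0.11, adjusted p = 0.109) and did not pass the test. Gmnn encodes geminin, the inhibitor of Cdt1 that stops origins from being licensed again. It was at 6.81, 5.98 and 4.27 CPM with vehicle and 6.32, 6.76 and 4.54 CPM with HC-HA/PTX3. The groups overlapped throughout, and Gmnn was the licensing gene with the smallest change, 0.05 (SE 0.13, adjusted p = 0.843).

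E2F factors are known regulators of many of these genes, and the promoters of the 53 genes were searched for E2F letters. Windows of 300 bases, 250 before to 50 after the start that RefSeq annotates on GRCm38.p6, were available for 43 of the 53 genes. The E2F letters searched were TTTCCCGC, TTTCGCGC, TTTGCCGC and TTTGGCGC on either strand. Such letters stood before the start in genes that were not called, namely Mcm7, Rfc3 and Gins3 (165, 10 and 41 bases before it). In 6 of the genes called lower they stood before the start too. For each of the called genes a stretch of 60 bases is shown, 5′ to 3′ on the gene's strand, with E2F letters in capitals.
Mcm5 (chr8:75109332-75109391, plus strand): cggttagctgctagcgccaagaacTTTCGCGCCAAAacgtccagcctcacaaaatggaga
Mcm6 (chr1:128359780-128359839, minus strand): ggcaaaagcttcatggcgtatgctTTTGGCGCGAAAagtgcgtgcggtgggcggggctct
Orc1 (chr4:108579394-108579453, plus strand): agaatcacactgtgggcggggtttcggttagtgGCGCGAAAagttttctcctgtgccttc
Cdc6 (chr11:98907987-98908046, plus strand): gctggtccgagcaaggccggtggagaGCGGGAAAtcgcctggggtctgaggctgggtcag
Pola1 (chrX:93632260-93632319, minus strand): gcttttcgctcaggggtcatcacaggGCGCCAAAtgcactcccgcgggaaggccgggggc
Brca2 (chr5:150522427-150522486, plus strand): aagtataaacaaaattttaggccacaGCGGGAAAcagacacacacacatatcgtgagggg
A further match in Mcm6, TTTGGCGC at 47 bases before the start, lies outside the stretch shown. In Mcm5 and Mcm6 the capitals hold an overlapping pair of matches, TTTCGCGC on one strand and TTTGGCGC on the other. In Orc1, Cdc6, Pola1 and Brca2 the letters are read on the strand opposite to the gene.

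A gene with several windows was counted if any of them held a match. An E2F match was found in 16 of the 43 genes with a window (37.2%). It was found in 537 of the 13010 tested genes with a window (4.13%) and in 704 of all 27025 genes with a window (2.60%). Among all tested genes called lower it was 55 of 688 (7.99%), and among further genes of the replication machinery 8 of 33 (24.2%). Of the called genes 12 of 28 held a match (42.9%), and of the genes not called 4 of 15 (26.7%). The median log2 fold change was -0.92 in the 16 genes with a match and -0.67 in the 27 without one. Promoters of mitosis and G2/M genes are known for a different element, the CHR (TTTGAA or TTCGAA). Of 25 such genes with a window, 1 held E2F letters and 18 held CHR letters (72.0%). CHR letters were found in 8 of the 43 replication genes (18.6%). They were found in 2208 of the 13010 tested genes (17%) and 168 of the 688 tested genes called lower (24.4%). The letters CCAAT, on either strand, were found in 24 of the 43 (55.8%), in 42.1% of all tested genes and in 80.0% of the mitosis genes. A match describes the letters of a window and does not show that a factor was bound there, and a window without a match says only that these letters are not in it.

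Genes that activate the helicase and keep the fork moving were divided. Of 9 genes, 4 fell, namely Clspn, Cdc45, Gins2 and Wdhd1, and the median log2 fold change was -0.47. Without replicate 1 the calls of Cdc45 (adjusted p = 0.0550) and Wdhd1 (adjusted p = 0.0789) were lost. Wdhd1 was also short of the fold threshold without replicate 3, under upper-quartile scaling and after ComBat-seq (each -0.49 or -0.48). Clspn encodes claspin, which links the fork to the checkpoint kinase CHK1, and lies on chromosome 4 from 126556935 to 126593903. It was at 26.8, 21.9 and 10.9 CPM in vehicle replicates 1, 2 and 3 and at 8.33, 13.7 and 2.45 CPM in the treated replicates. The groups overlapped because vehicle replicate 3 was below treated replicate 2, yet the treated culture was lower in each pair. The log2 fold change was -1.45 (SE 0.21, adjusted p = 0.00192, edgeR's quasi-likelihood test, Benjamini-Hochberg adjusted).

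Timeless, whose protein protects the fork, had the smallest change in this role. Its levels were 49.9, 58.7 and 30.1 CPM with vehicle and 36.5, 62.5 and 33.0 CPM with HC-HA/PTX3. The treated culture was lower in pair 1 and higher in the other pairs, and the log2 fold change was -0.08 (SE 0.11, adjusted p = 0.657). Gins1, Gins2, Gins3 and Gins4 encode the subunits of the GINS complex, which holds the helicase together with Cdc45. Whether they differed from each other was not tested. Gins2 changed by -0.83 (SE 0.21, adjusted p = 0.0216), but 67.3% of its exon length is overlapped by Gse1 on the opposite strand, and the call was lost without replicate 1 (adjusted p = 0.124) and without replicate 3 (0.0653). Gins4, the gene of this role with the highest level per kilobase (11.6 CPM per kb with vehicle), was at 16.4, 15.8 and 14.7 CPM with vehicle and 12.8, 16.4 and 11.9 CPM with HC-HA/PTX3. Treated replicate 2 matched the highest vehicle culture, and Gins4 did not pass the test (-0.21, adjusted p = 0.212). Gins3 was higher in the treated culture of pairs 1 and 3 and level in pair 2 (6.84 CPM in both cultures), with a log2 fold change of 0.27 that did not pass the test (SE 0.14, adjusted p = 0.209). Gins1 was at -0.32 (adjusted p = 0.194).

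Of the clamp and its loader, 2 of 6 genes fell, and the median log2 fold change was -0.39. Pcna encodes the ring that tethers polymerases to DNA, and lies on chromosome 2 from 132249162 to 132253314. With 26.6 CPM per kb in the vehicle cultures it had the highest level per kilobase of all 53 genes. Pcna was at 68.2, 70.6 and 52.7 CPM with vehicle and 45.3, 54.2 and 33.9 CPM with HC-HA/PTX3. Treated replicate 2 lay just above vehicle replicate 3, so the groups overlapped. Its log2 fold change was -0.54 (SE 0.07, adjusted p = 0.00139, edgeR's quasi-likelihood test, Benjamini-Hochberg adjusted), and -0.49 without replicate 3, short of the fold threshold. The annotation holds processed copies of Pcna, with which its reads may have been shared.

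Rfc5, a subunit of the loader that opens the clamp, had the largest change of the role. It was at 8.69, 9.78 and 6.64 CPM with vehicle and 6.08, 6.84 and 2.98 CPM with HC-HA/PTX3. Vehicle replicate 3 was within the range of the treated cultures, and the log2 fold change was -0.72 (SE 0.15, adjusted p = 0.00937). Rfc1, the large subunit of the loader, was at 83.8, 84.0 and 75.9 CPM with vehicle and 65.4, 74.2 and 64.2 CPM with HC-HA/PTX3. Its groups did not overlap, but the change of -0.26 (SE 0.07, adjusted p = 0.0205) was short of the fold threshold. Rfc2, Rfc3 and Rfc4 had changes of -0.31, -0.37 and -0.41 and were not called.

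**Figure D2:**
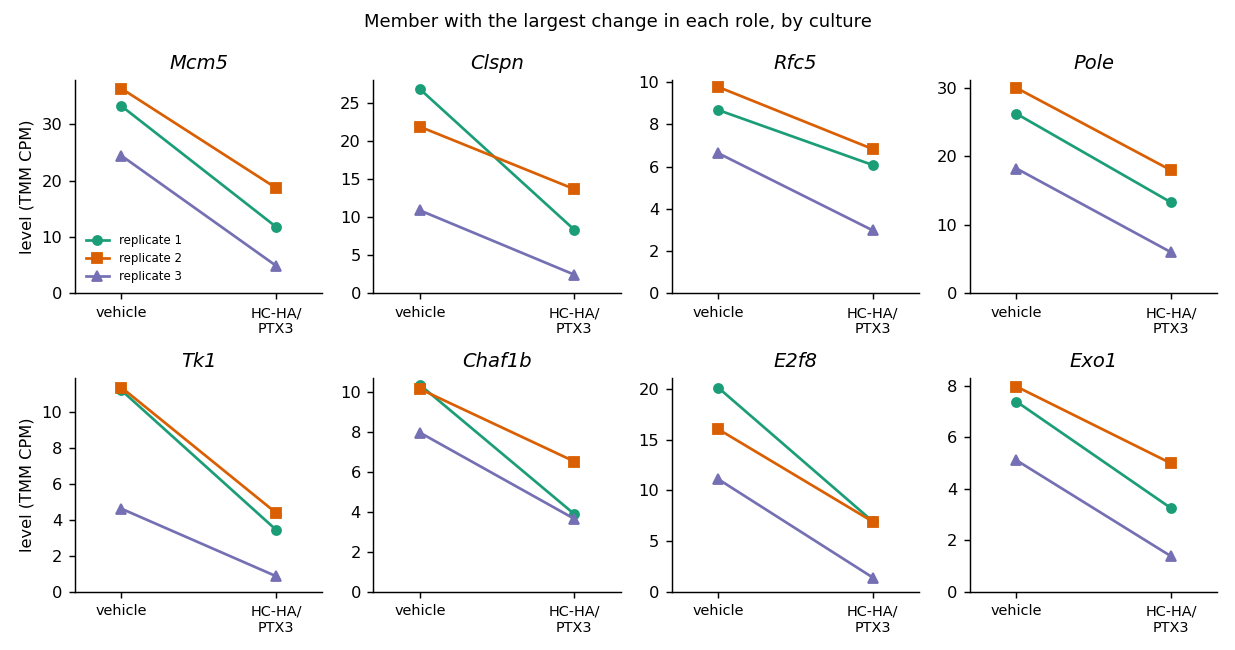
Level of the gene with the largest change in each of the 8 roles, in TMM-scaled CPM (vertical axes start at 0), in each vehicle and HC-HA/PTX3 culture, with lines joining cultures of the same replicate number. All lines slope down, and replicate 3 (triangles) is the lowest culture of its group in every panel.

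Among the polymerases and their partners, 6 of 10 genes fell, with a median log2 fold change of -0.70. Pole encodes the catalytic subunit of DNA polymerase epsilon, the leading-strand enzyme, and lies on chromosome 5 from 110286306 to 110337474. It was at 26.2, 29.9 and 18.2 CPM with vehicle and 13.3, 17.9 and 5.99 CPM with HC-HA/PTX3. The groups were separate by a small gap between vehicle replicate 3 and treated replicate 2. Pole changed on the log2 scale by -1.09 (SE 0.14, adjusted p = 0.00112, edgeR's quasi-likelihood test, Benjamini-Hochberg adjusted). Pold1, the catalytic subunit of the lagging-strand polymerase delta, changed by -0.98, and Pole2, a further epsilon subunit, by -0.73.

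DNA polymerase alpha and primase, which start each new strand, were split between their subunits. The catalytic genes Pola1 and Prim1 changed by -0.87 (SE 0.10) and -0.91 (SE 0.13) and were called. The accessory genes Pola2 and Prim2 were not, at -0.10 (SE 0.09, adjusted p = 0.486) and -0.29 (SE 0.11, adjusted p = 0.0871). Pola2 was at 17.3, 18.9 and 16.5 CPM with vehicle and 16.2, 18.4 and 14.9 CPM with HC-HA/PTX3, so the groups overlapped almost fully. Whether the catalytic and accessory genes differed from each other was not tested. Lig1, the ligase that joins Okazaki fragments, had the highest level per kilobase of this role (7.18 CPM per kb with vehicle). It was at 35.8, 33.2 and 22.9 CPM with vehicle and 20.1, 25.2 and 13.6 CPM with HC-HA/PTX3. Vehicle replicate 3 was below treated replicate 2, and the log2 fold change was -0.66 (SE 0.10, adjusted p = 0.00201). Fen1, the nuclease that trims the fragments, was not called at -0.38, and 78.8% of its exon length is overlapped by a gene on the opposite strand. Rpa2, of the single-strand binding complex, was at -0.42 (adjusted p = 0.0519).

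In nucleotide supply 4 of 5 genes fell, with a median log2 fold change of -0.78. Tk1 encodes the thymidine kinase of S phase, which salvages thymidine, and lies on chromosome 11 from 117815526 to 117826092. It was at 11.2, 11.4 and 4.63 CPM in vehicle replicates 1, 2 and 3 and at 3.455, 4.399 and 0.8672 CPM in the treated replicates. Every treated culture was below every vehicle culture, and replicate 3 was far below the other cultures of its group. The fitted level was 29.7% of vehicle (log2 fold change -1.75, SE 0.18, adjusted p = 0.000557, edgeR's quasi-likelihood test, Benjamini-Hochberg adjusted). Rrm2, on chromosome 12 from 24708241 to 24714146, encodes the small subunit of ribonucleotide reductase, the enzyme that makes deoxynucleotides, and had the highest level per kilobase of this role (13.4 CPM per kb with vehicle). It was at 37.6, 42.5 and 31.1 CPM with vehicle and 13.5, 22.7 and 6.02 CPM with HC-HA/PTX3. The groups were well separated, and the log2 fold change was -1.55 (SE 0.20, adjusted p = 0.00112).

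The large subunit gene Rrm1 changed by -0.73 and the thymidylate synthase gene Tyms by -0.78, and both were called. The annotation holds a processed copy of Tyms that may share its reads. Dut encodes the enzyme that keeps uracil out of DNA. It was at 15.0, 16.8 and 16.8 CPM with vehicle and 9.91, 15.0 and 10.9 CPM with HC-HA/PTX3. The highest treated culture was level with the lowest vehicle culture, and the change of -0.47 (SE 0.12, adjusted p = 0.0192) was short of the fold threshold.

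Both genes of chromatin assembly fell. Chaf1b and Chaf1a encode subunits of the CAF-1 complex, which places histones on new DNA. Chaf1b, on chromosome 16 from 93883901 to 93906115, was at 10.4, 10.2 and 7.97 CPM with vehicle and 3.88, 6.52 and 3.65 CPM with HC-HA/PTX3. The groups did not overlap, and the log2 fold change was -1.05 (SE 0.16, adjusted p = 0.0020, edgeR's quasi-likelihood test, Benjamini-Hochberg adjusted). Chaf1a was at 21.4, 22.3 and 15.8 CPM with vehicle and 11.8, 16.7 and 6.07 CPM with HC-HA/PTX3. Vehicle replicate 3 was below treated replicate 2. The log2 fold change was -0.87 (SE 0.15, adjusted p = 0.00403), although 52.5% of the exon length of Chaf1a is overlapped by Ubxn6 on the opposite strand. The strand setting of the counting is not given in the sources used here, and reads of such overlapping genes cannot be told apart without it. Over all 53 genes, 18 have exons overlapped by a gene on the opposite strand, 9 of them over more than 10% of their exon length.

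Among the regulators of S-phase entry, 4 of 5 genes fell, with a median log2 fold change of -0.74. E2f8, on chromosome 7 from 48866429 to 48881596, encodes an atypical E2F that represses other E2F targets and is itself made in S phase. It was at 20.1, 16.0 and 11.1 CPM in vehicle replicates 1, 2 and 3 and at 6.94, 6.92 and 1.40 CPM in the treated replicates. No treated culture reached the lowest vehicle culture, and treated replicate 3 stood well below the other cultures. This was the largest fitted change of the 53 genes, to 28.8% of vehicle (log2 fold change -1.80, SE 0.24, adjusted p = 0.00139, edgeR's quasi-likelihood test, Benjamini-Hochberg adjusted).

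E2f1, an activating E2F, had the smallest change of the regulators and the highest level of them per kilobase (8.47 CPM per kb with vehicle). Its levels were 30.1, 27.0 and 22.9 CPM with vehicle and 24.1, 23.0 and 18.5 CPM with HC-HA/PTX3. The groups overlapped, the treated culture was lower in each pair, and the change of -0.30 (SE 0.08, adjusted p = 0.0312) was short of the fold threshold. E2f2, another activator, changed by -0.71 (SE 0.18, adjusted p = 0.0208) and lost its call without replicate 1 (adjusted p = 0.178). The cyclin E genes Ccne1 and Ccne2, whose proteins activate CDK2 at the start of S phase, changed by -0.87 (SE 0.12) and -0.74 (SE 0.11). Ccne1 was even across the vehicle cultures, at 13.0, 13.1 and 13.1 CPM, and lower in each treated culture, at 6.80, 8.24 and 6.63 CPM. It was also the gene of the 53 with the smallest adjusted p-value when the block was left out, 0.207.

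In the checkpoint and repair group 4 of 5 genes fell, with a median log2 fold change of -0.88. Exo1, an exonuclease that resects DNA ends, lies on chromosome 1 from 175880581 to 175913489. It was at 7.38, 7.96 and 5.10 CPM with vehicle and 3.24, 4.98 and 1.38 CPM with HC-HA/PTX3. The groups were separate, though vehicle replicate 3 and treated replicate 2 were nearly equal. The log2 fold change was -1.20 (SE 0.20, adjusted p = 0.00331, edgeR's quasi-likelihood test, Benjamini-Hochberg adjusted). Brca1 and Brca2, which protect stalled forks and act in recombination repair, changed by -0.88 (SE 0.10) and -1.07 (SE 0.13). Brca1, on chromosome 11 from 101488764 to 101551955, had the highest level per kilobase of this group, 2.26 CPM per kb with vehicle. Its levels were 24.8, 20.6 and 12.5 CPM with vehicle and 12.2, 12.7 and 6.63 CPM with HC-HA/PTX3. Vehicle replicate 3 was level with treated replicates 1 and 2, so the groups overlapped, and within each pair the treated culture was lower.

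Chek1, the gene of the kinase CHK1, changed by -0.67. Blm, the helicase that is lost in Bloom syndrome, was at 19.7, 20.0 and 18.6 CPM with vehicle and 15.5, 16.3 and 15.1 CPM with HC-HA/PTX3. Both groups were tight and did not overlap, but the change of -0.32 (SE 0.09, adjusted p = 0.0351) was short of the fold threshold.

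The size of the fall differed between the pairs of cultures. The median log2 difference of the 53 genes, treated minus vehicle, was -0.83 in pair 1, -0.44 in pair 2 and -0.90 in pair 3, while that of all tested genes was within 0.02 of 0 in each pair. In 45 of the 53 genes pair 2 had the highest log2 difference of the 3 pairs, that is, the smallest fall or the largest rise. The largest fall was in pair 3 in 31 genes and in pair 1 in 21. Gins3 did not fall in any pair. Replicate 3 was also low in both groups. It was the lowest vehicle culture in 46 of the 53 genes and the lowest treated culture in 46, and treated replicate 2 was the highest treated culture in 49. Within the vehicle cultures the median log2 level of the 53 genes was 0.36 lower in replicate 3 than in replicate 1, and within the treated cultures 0.38 lower. The labels do not say what the replicate numbers stand for.

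**Figure D3:**
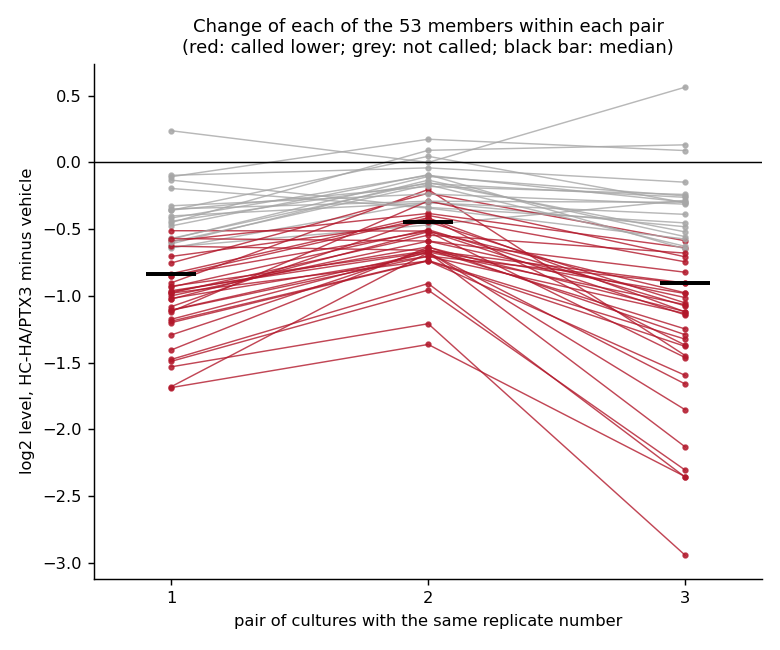
Log2 level of HC-HA/PTX3 minus vehicle in each same-numbered pair of cultures, with 1 line for each of the 53 genes (red, called lower; grey, not called) and a black bar at the median of each pair. The medians are -0.83, -0.44 and -0.90, and pair 2 lies closest to 0.

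The calls depended on comparing cultures within pairs. With treatment as the only term, edgeR called 0 of the 53 genes and 0 of the 18277 tested genes, with smallest adjusted p-values of 0.207 and 0.0581. In that fit 31 of the 53 genes had an unadjusted p-value under 0.05, as had 11.4% of all tested genes, and the median log2 fold change of the 53 was -0.70. When ComBat-seq removed the replicate number and limma compared the groups, 32 of the 53 were called lower. For a single gene, the smallest p-value of an exact two-sided permutation test is 0.1 with 3 cultures a group and 0.25 with signs flipped within 3 pairs.

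Further genes of the pathway, outside the 53, were counted in the same way, beside 5.38% of all tested genes called lower and 3.32% called higher. Of 39 further genes of the replication machinery 15 were called lower and 0 higher, with a median log2 fold change of -0.42. The largest changes were those of Top2a, the topoisomerase that untangles daughter DNA (-1.68), Ticrr, which helps fire origins (-1.37), and Asf1b, a histone chaperone (-1.32). Of 20 further genes of nucleotide supply 2 were called lower and 0 higher, with a median of -0.24. The largest change of this list was that of Shmt1 (-1.32), a serine hydroxymethyltransferase of folate metabolism. Without the block, at an unadjusted p-value below 0.05, 13 of the 39 and 3 of the 20 genes passed, beside 11.4% of all tested genes.

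Of 30 genes of G1/S control outside the 53, 8 fell and 1 rose, where 5.38% and 3.32% of all tested genes did. The median log2 fold change of the 30 was -0.17. The largest falls were in Ccna2, the cyclin A of S phase (-1.75), E2f7, the partner of E2f8 (-1.29), and Rbl1, which encodes the RB relative p107 (-1.26). The gene that rose was Cdkn1a, which encodes p21, an inhibitor of cyclin-dependent kinases that also binds PCNA. Cdkn1a was at 157.6, 195.5 and 327.8 CPM in vehicle replicates 1, 2 and 3 and at 314.3, 303.9 and 534.2 CPM in the treated replicates. The groups overlapped because vehicle replicate 3 was above treated replicates 1 and 2, and within each pair the treated culture was higher. The log2 fold change was 0.77 (SE 0.08, adjusted p = 0.000491, edgeR's quasi-likelihood test, Benjamini-Hochberg adjusted).

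**Figure D4:**
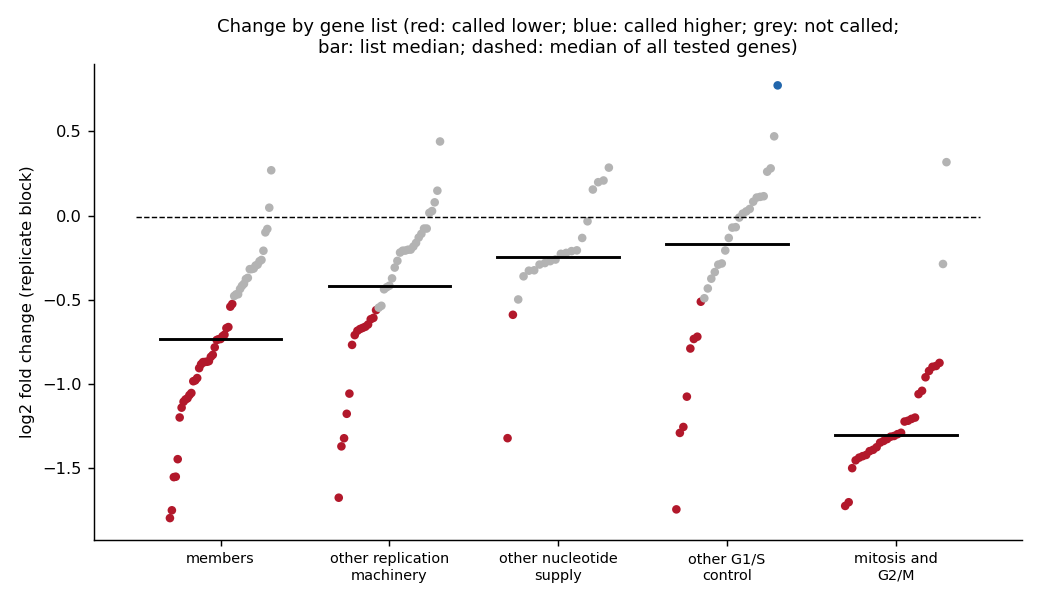
Log2 fold change from edgeR's fit blocked on the replicate number, with 1 point per gene, for the 53 replication genes and 4 further lists (red, called lower; blue, called higher; grey, not called; bars, list medians; dashed line, median of all tested genes). The medians are -0.73, -0.42, -0.24, -0.17 and -1.30 from left to right, and Cdkn1a is the single blue point.

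Mitosis and G2/M genes fell as well. Of 30 such genes 28 were called lower and 0 higher, with a median log2 fold change of -1.30 beside -0.73 for the replication genes, and whether the lists differed was not tested. The largest changes were those of Mki67, the gene of the proliferation marker Ki-67, at 30.3% of its vehicle level, Ube2c, of the mitotic ubiquitin machinery, at 30.7%, and Anln, of the cleavage furrow, at 35.3%. The 30 genes summed to 1470, 1006 and 502.2 CPM in vehicle replicates 1, 2 and 3 and to 575.2, 563.9 and 160.3 CPM in the treated replicates. Treated replicates 1 and 2 were above vehicle replicate 3, so these sums overlapped, unlike those of the replication genes. Without the block, 8 of the 30 mitosis genes had an unadjusted p-value below 0.05, as had 31 of the 53 replication genes.

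Some markers of non-neuronal cells moved with the replication genes. The 10 fibroblast markers summed to 3035, 3129 and 1680 CPM in treated replicates 1, 2 and 3, which was 69.3%, 72.5% and 59.7% of vehicle within the pairs. Of these 10 genes 5 were called lower, namely Col1a1, Col1a2, Col3a1, Fn1 and Postn, the largest change being that of Col1a1 (-1.62). The satellite glia markers summed to 2120, 1369 and 537.7 CPM in the treated cultures, 95.8%, 103% and 97.2% of vehicle, and 0 of 9 were called by edgeR in the blocked fit. Kcnj10 (-0.34, adjusted p = 0.0108), Fabp7 (-0.40, adjusted p = 0.0154) and Glul (0.28, adjusted p = 0.0198) had an adjusted p-value below 0.05 and were short of the fold threshold. Without the block 0 of 9 reached an unadjusted p-value below 0.05. The satellite glia sum was lowest in replicate 3 of both groups, as were those of the replication, mitosis, fibroblast and Schwann cell lists. For satellite glia, replicate 3 was at 25.0% of replicate 1 with vehicle and 25.4% with HC-HA/PTX3. For the replication genes it was at 79.2% and 78.0%.

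The Schwann cell and myelin markers summed to 2981, 2465 and 2435 CPM in the treated cultures, with 1 of 10 called lower. The macrophage markers summed to 53.95, 75.02 and 43.69 CPM with 2 of 10 called lower (C1qa and C1qb), and the endothelial and mural markers to 549.8, 634 and 453.4 CPM with 1 of 10 called lower (Acta2). The neuron markers summed to 11830, 9796 and 11460 CPM, 106%, 109% and 113% of vehicle, with 0 of 14 called lower and 2 called higher (Tac1 and Mrgprd). Of all tested genes 5.38% were called lower and 3.32% higher. The part of these cell types in the fall of the replication genes was not tested.

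**Figure D5:**
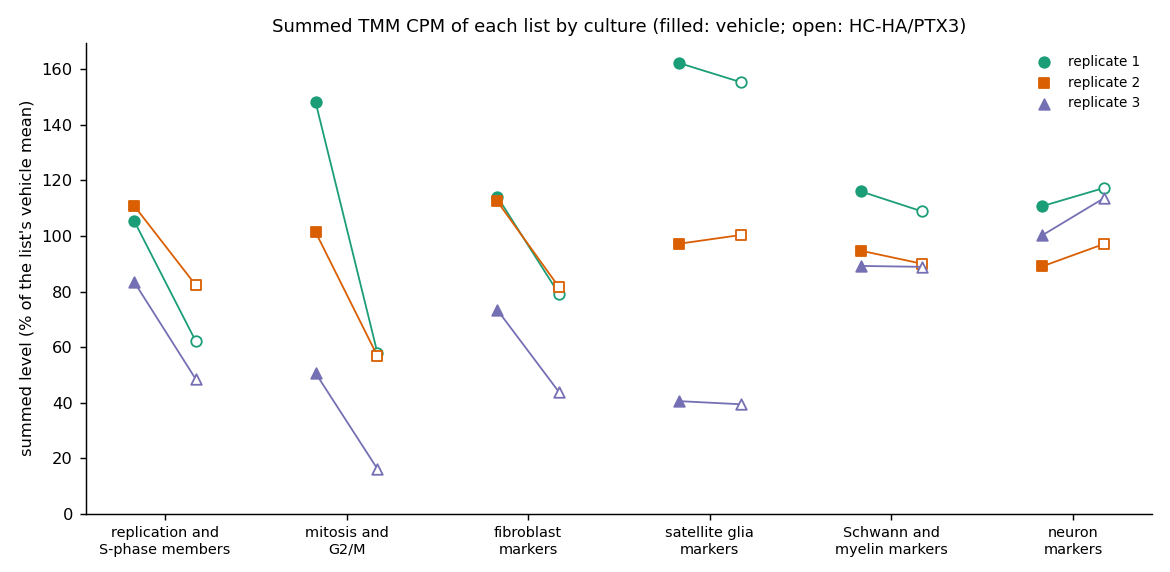
Summed level of 6 gene lists in each culture, as a percentage of that list's mean over the 3 vehicle cultures (filled symbols, vehicle; open symbols, HC-HA/PTX3; lines join same-numbered cultures). The sums of the replication, mitosis and fibroblast genes fall within all 3 pairs. That of the satellite glia markers stays near its vehicle level within each pair and differs between the replicate numbers.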

How the data were processed

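RNA was measured in 6 cultures, and group and replicate number were taken from the sample labels. The authors aligned reads to mm10, filtered out ribosomal RNA and ran featureCounts of Subread. They deposited raw counts per gene, neither normalized nor pooled. The methods name HISAT2, whereas the deposited headers name STAR, and versions are not given in the sources used here.

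Counts of 18277 genes passing filterByExpr were scaled by TMM and compared in R 4.3.3 with edgeR 4.0.16 (glmQLFit and glmQLFTest, Benjamini-Hochberg adjustment over all tested genes), with the replicate number as a block. All adjusted p-values are from this test unless another is named. The study's methods used a batch term without listing batches, and the replicate number stood in for it. Across genes, deviations from the group means correlated at 0.631, 0.535 and 0.774 between same-numbered cultures and at -0.613 to 0.149 between others. Libraries of a group were not duplicates (chi-square of their counts per degree of freedom, 34.1 to 120, where counting error gives about 1). Levels within pairs are log2 CPM with a prior count of 2. Percentages of vehicle are fitted values for single genes and ratios of summed CPM within a pair for lists. Positions and exon lengths are those of GENCODE M21 on mm10.

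Values per culture are given, in each role, for the genes with the largest change, the smallest change and the highest level per kilobase; Ccne1 and the promoter stretches were chosen after the values were seen. Of other lists, the 3 largest called changes and any gene called higher are named, and some named by these rules are not reported here. The members and lists were chosen with earlier results of these data known. Alternatives were no block, DESeq2 1.42.0, upper-quartile scaling, no low-count filter, at least 10 counts in every culture, limma-voom (limma 3.58.1), ComBat-seq (sva 3.50.0) followed by limma, no fold threshold, libraries thinned to 37434266 counts, and each replicate number left out.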

Additional observations from a re-analysis of the deposited data

How the results depend on the processing

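Without the replicate block, edgeR called 0 genes in each comparison: 0 of the 53 replication genes (31 at an unadjusted p-value under 0.05), 0 of all tested genes (2087 at that level), and 0 of the further replication machinery, nucleotide supply, G1/S control and mitosis genes. The pairing therefore decides every call, while 51 of the 53 fitted changes stayed below 0. With the block, 33 replication genes were called lower under DESeq2, limma-voom, no low-count filter, at least 10 counts in every culture and thinned libraries, and they were the same 33 genes. Upper-quartile scaling and ComBat-seq with limma each called 32 of these, losing Wdhd1 at the fold threshold (-0.49 and -0.48). Without a fold threshold, 43 replication genes, 3505 genes in all, 7 genes of nucleotide supply and 15 of G1/S control passed. Leaving out 1 replicate number at a time gave 29 to 36 replication genes called lower, a median of -0.83 to -0.61, 878 to 1571 genes in all, 11 to 17 of the replication machinery, 1 to 3 of nucleotide supply, 7 to 10 of G1/S control and 27 to 29 of mitosis. Without replicate 1, which gave the 878 (630 lower and 248 higher, against 984 and 607), the calls of Cdc45, Gins2, Wdhd1 and E2f2 were lost. Without replicate 3, those of Gins2, Wdhd1 and Pcna were lost. None of the 33 replication genes called lower reversed its sign under these settings. Genes called higher numbered 360 of all tested genes under DESeq2 and 1012 after ComBat-seq. The cause of these differences was not tested. The scaling settings moved the median of all tested genes by at most 0.03. The lowest count of a replication gene was 33, so counting error adds to the spread between cultures for low genes such as Orc1 and Tk1.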

Other observations

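The E2F genes, the RB family, the D-type cyclins with their kinases, and the inhibitors of cyclin-dependent kinases were read gene by gene. The fit was the same, and all listed genes of these families are given. Among the E2F genes, the atypical repressors E2f7 (-1.29) and E2f8 (-1.80) and the activator E2f2 (-0.71) were called lower. E2f1 (-0.30), E2f3 (-0.21), E2f4 (-0.07), E2f5 (0.08) and E2f6 (0.02) were not called. E2f7 was at 17.4, 13.0 and 8.80 CPM in vehicle replicates 1, 2 and 3 and at 5.63, 7.79 and 3.04 CPM in the treated replicates, so all treated cultures were below all vehicle cultures. In the RB family Rbl1 was called lower (-1.26), while Rb1 (0.28, adjusted p = 0.0226) and Rbl2 (0.11, adjusted p = 0.335) were not called. Outside these families, Cdk2 was called lower (-0.72), and Tfdp1 (-0.34) and Tfdp2 (-0.28) were not called.

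Of the D-type cyclins, which start the inactivation of RB, Ccnd2 (-0.51) and Ccnd3 (-0.79) were called lower, and Ccnd1 was just short of the fold threshold at -0.49 (adjusted p = 0.00726). Ccnd2 lay close to the fold threshold. Under upper-quartile scaling, DESeq2 and ComBat-seq with limma, 8 rather than 9 genes of the G1/S list were called. Which call was lost in each is not given here. The kinases of these cyclins were divided, with Cdk6 called lower (-0.73) and Cdk4 not called (-0.07, adjusted p = 0.575). Of the 7 listed inhibitors of cyclin-dependent kinases, Cdkn1a was called higher and Cdkn2c was called lower (-1.08). Cdkn2c, which encodes p18, was at 22.5, 14.9 and 5.55 CPM with vehicle and at 10.9, 8.37 and 2.04 CPM with HC-HA/PTX3. Vehicle replicate 3 was below treated replicates 1 and 2, so its groups overlapped, and the treated culture was lower in each pair. Cdkn2d (0.26, adjusted p = 0.0284), Cdkn1b (0.11), Cdkn1c (0.47), Cdkn2a (-0.43) and Cdkn2b (0.11) were not called. With the treatment as the only term, edgeR called none of these genes, and 4 of the 30 genes of G1/S control had an unadjusted p-value below 0.05, beside 11.4% of all tested genes. They were singled out after their values were seen.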
